A study of Mus musculus with 22 samples.

Results

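The small intestine of male mice aged 8 weeks was compared between mice given 10 Gy of X-rays, at 1.0 Gy per minute, and mice given 0 Gy. MicroRNAs (miRNAs) were measured on 8 single-colour Agilent mouse miRNA arrays, chosen by their titles, 4 at each dose, out of 22 arrays that also covered serum and feces. Each array was hybridised with Cy3-labelled total RNA of 1 sample of whole small intestine. Strain, and the time from exposure to collection, are not given in the sources used here. The labels do not tie the samples of a dose to separate animals, so a p-value here speaks only of sample-to-sample spread, some of it possibly technical. The array carries probes for 1881 miRNAs, of which 438 were detected on at least 1 intestine array and 268 on all 8. The 335 detected on at least 4 of the 8 were tested.

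A miRNA is a short RNA that guides an Argonaute protein to messenger RNAs, mostly by pairing through its seed, bases 2 to 8 from its 5′ end. miRNAs with the same seed can bind many of the same messenger RNAs, and several miRNAs are often cut from 1 primary transcript. In the intestine, miR-192, miR-194 and miR-215 are known from absorptive epithelium, the miR-200 family from epithelium in general, miR-143 and miR-145 from smooth muscle, miR-150 from mature lymphocytes and miR-223 from granulocytes. The miR-34 genes are transcribed by p53, the factor that DNA damage activates, and the miR-17/92 cluster is transcribed by Myc and is abundant in dividing cells. High-dose radiation is known to stop division in the crypts, to kill lymphocytes and to deplete the epithelium.

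The mature sequences of the miRNAs that carry the comparison are shown 5′ to 3′ as RefSeq gives them for GRCm38.p6, with the seed in capitals. RefSeq entries matched 291 of the 335 tested miRNAs. The first pair shares the seed of the miR-34 family and rose at 10 Gy.
miR-34a-5p: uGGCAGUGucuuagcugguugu
miR-34b-5p: aGGCAGUGuaauuagcugauugu
All members tested with the next 2 seeds fell, that of the miR-17 group and that of miR-200b, miR-200c and miR-429.
miR-17-5p: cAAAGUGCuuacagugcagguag
miR-20a-5p: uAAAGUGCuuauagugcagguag
miR-20b-5p: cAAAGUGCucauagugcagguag
miR-93-5p: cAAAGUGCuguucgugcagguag
miR-106b-5p: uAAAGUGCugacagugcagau
miR-200b-3p: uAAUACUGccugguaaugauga
miR-200c-3p: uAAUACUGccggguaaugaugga
miR-429-3p: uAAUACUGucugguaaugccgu
Members of 2 further seeds went opposite ways. In the first, miR-15b-5p fell while miR-195a-5p and miR-497a-5p rose. In the second, miR-130b-3p fell while miR-130a-3p rose. miR-721, with the same seed, was detected on irradiated arrays only.
miR-15b-5p: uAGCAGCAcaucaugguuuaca
miR-195a-5p: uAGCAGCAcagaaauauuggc
miR-497a-5p: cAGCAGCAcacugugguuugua
miR-130b-3p: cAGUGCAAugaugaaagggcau
miR-130a-3p: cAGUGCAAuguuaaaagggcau
miR-721: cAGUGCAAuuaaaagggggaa
The last set holds miRNAs known from leukocytes and absorptive epithelium, and miR-27a-3p with its near copy miR-27b-3p, which differ at 1 of 21 bases.
miR-223-3p: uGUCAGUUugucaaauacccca
miR-132-3p: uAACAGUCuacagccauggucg
miR-142a-3p: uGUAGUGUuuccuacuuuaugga
miR-192-5p: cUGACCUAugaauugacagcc
miR-194-1-3p: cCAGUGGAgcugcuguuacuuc
miR-27a-3p: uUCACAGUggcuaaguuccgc
miR-27b-3p: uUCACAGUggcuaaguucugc

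More miRNAs were detected on the irradiated arrays. The number was 298, 295, 285 and 300 on the 0 Gy arrays and 332, 387, 389 and 355 on the 10 Gy arrays. The doses did not overlap, and the difference of 71.25 had an exact two-sided permutation p of 0.0286, the smallest that 4 against 4 allows. Arrays of 1 dose correlated at r between 0.961 and 0.993 across miRNAs. The irradiated arrays were also brighter. The 75th percentile that each array was scaled by ranged from 439 to 538 in processed signal at 0 Gy and from 553 to 879.8 at 10 Gy, while the labelling spike-in read 3.22 to 3.25 and 3.24 to 3.30 on a log10 scale. All 8 arrays were on 1 slide, with 0 Gy in its columns 1 and 2 and 10 Gy in columns 3 and 4, so that dose and slide column cannot be told apart. Levels below are processed signals scaled so that the array's 75th percentile is 100, and they compare arrays, not miRNAs, since brightness also depends on the probe.

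After irradiation 140 of the 335 tested miRNAs changed by limma at an adjusted p below 0.05, which is 41.8%. Of these, 87 (26.0%) were higher and 53 (15.8%) lower. The median log2 change over all 335 was 0.16. Arrays of the 2 doses did not overlap for 132 of the 335 (39.4%), and for 121 of the 140 that passed. Of the 87 higher miRNAs, 24 were detected on no 0 Gy array and passed the detection filter only through the 10 Gy arrays, so these had to differ. Of the 53 lower, 1 was detected on no 10 Gy array and likewise had to differ. Among the 268 detected on all 8 arrays, 53 (19.8%) were higher and 44 (16.4%) lower, with median 0 Gy levels of 22.9 and 57.1 against 25.6 for all 268.

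The balance of higher and lower moved with how the arrays were scaled, so each change is relative to the array's 75th percentile. Without scaling 186 were higher and 13 lower, with a median change of 0.62. Scaling by the labelling spike-in gave 164 and 26, with a median of 0.50. The 75th percentile over all 1881 miRNAs gave 21 and 86, with a median of -0.35. Of these 1881, 1443 were detected on no intestine array, so that percentile lies around the limit of detection. Quantile normalization gave 57 and 65, and scaling by the median of the miRNAs detected on all 8 arrays gave 67 and 71. Within slide row 1, which held replicates 1 and 2 of both doses, 33 were higher and 15 lower. Row 2, with replicates 3 and 4, gave 33 and 16.

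**Figure D1:**
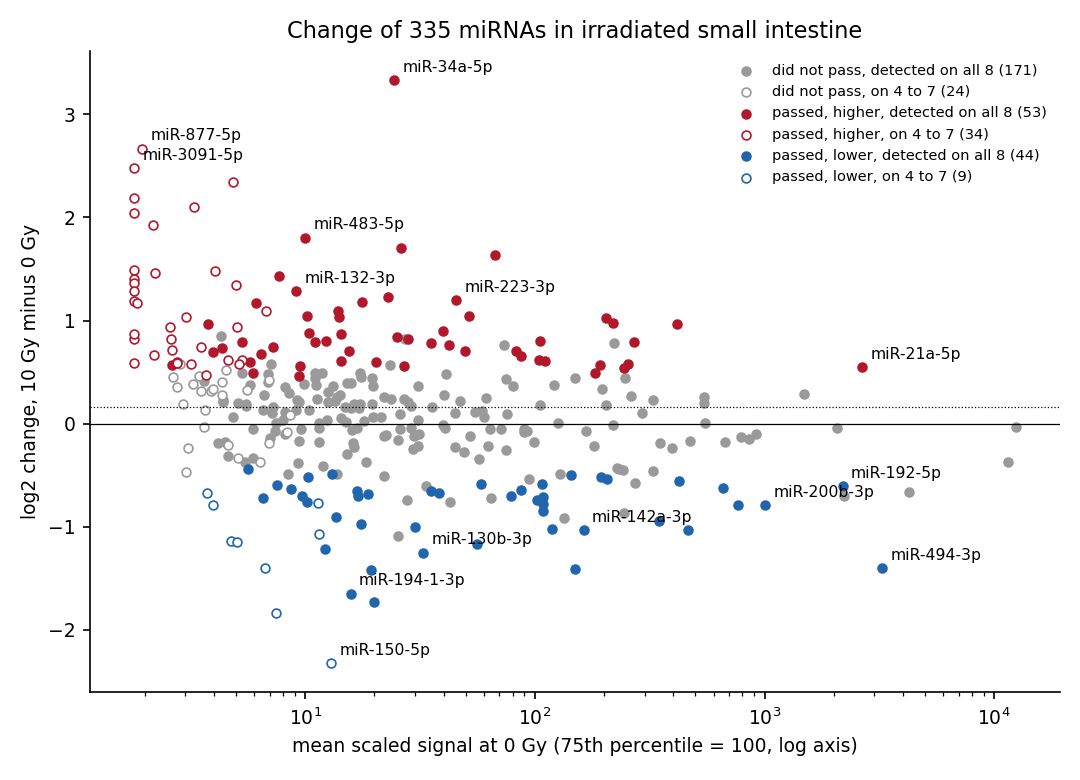
The log2 change of each of the 335 tested miRNAs (10 Gy minus 0 Gy, vertical axis) is plotted against its mean scaled signal at 0 Gy (log axis, array 75th percentile = 100). Filled points were detected on all 8 arrays and open points on 4 to 7, colour gives the limma call, the dotted line is the median of 0.16, and miR-34a-5p stands highest at 3.33.

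miR-34a-5p had the largest change of all tested miRNAs. Its level was 24.2, 24.7, 20.8 and 28.0 at 0 Gy and 280.4, 244, 189 and 278 at 10 Gy. The lowest irradiated array lay far above the highest control. Its log2 change was 3.33 ± 0.19 (SE, n = 4 against 4, limma adjusted p = 7.7e-08), and it passed under all alternatives run. Its hairpin lies at chr4:150068454-150068555 of GRCm38.p6, plus strand, inside no annotated protein-coding gene. miR-34b-5p, cut from a second p53-driven locus at chr9:51103562-51103645 (minus strand, within the genes Btg4 and Hoatz), had levels of 1.09, 0.893, 0.930 and 1.91 at 0 Gy and 4.48, 4.45, 3.20 and 4.78 at 10 Gy. It was detected on all 4 irradiated arrays and on no control, and was at least 1.08-fold higher (limma adjusted p = 0.00028). It passed the detection filter only through the irradiated arrays, where it is high, so it had to differ. The 1 detected probe, fitted singly, changed by 0.36, and the call was lost with the brightest probe, with the mean over detected probes and with a floor 4 times as high. The direction turned, to -0.066 without passing, when the background was modelled by normexp with offset 16. miR-34c-5p, its neighbour, was detected on 1 irradiated array only and was not tested. The other 4 listed members of the family, miR-34a-3p, miR-34b-3p, miR-34c-3p and miR-449a-5p, were detected on no intestine array.

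**Figure D2:**
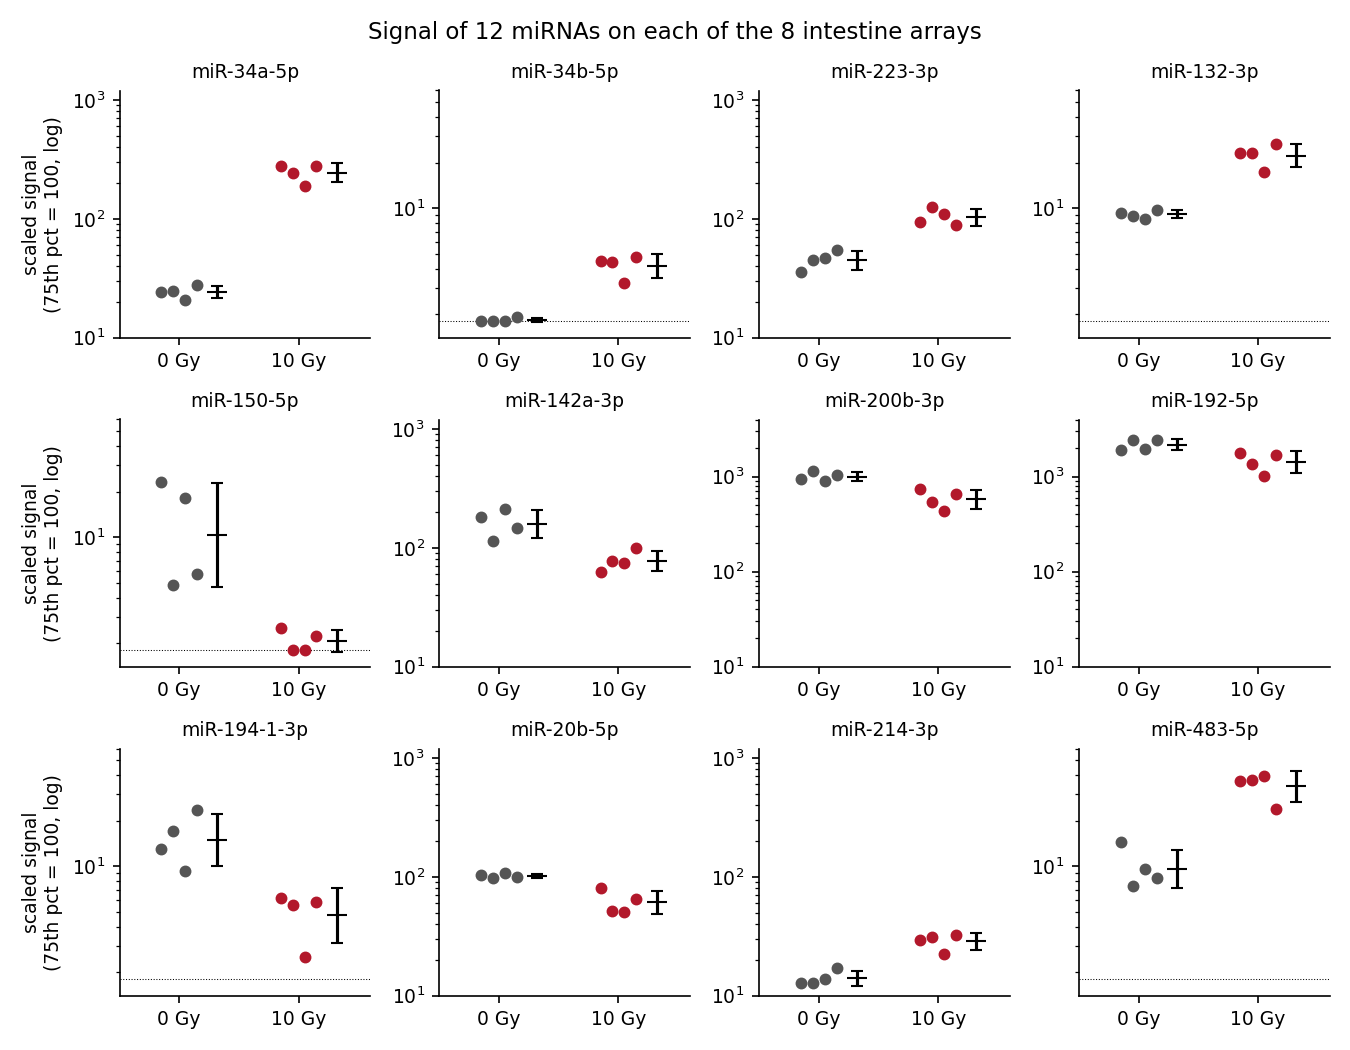
Scaled signal (log axis, array 75th percentile = 100) of 12 miRNAs on each array, with 4 points per dose and the mean ± SD of the log2 values beside them. The dotted line, where it falls within a panel, is the floor of 1.81, and points below it are drawn on it. For miR-34a-5p the 10 Gy arrays lie between 189 and 280.4, all above the 0 Gy arrays.

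The miRNAs of absorptive epithelium were lower. Of the 7 arms of miR-192, miR-194 and miR-215, 4 fell, none rose, and the median change was -0.74. Beside this and each list below stand the shares over all 335: 26.0% higher, 15.8% lower and 39.4% without overlap. The lists were chosen with earlier results of these data known. The precursor arms that are usually degraded gave the largest falls. miR-194-1-3p had levels of 13.1, 17.2, 9.31 and 23.5 at 0 Gy and 6.18, 5.57, 2.54 and 5.82 at 10 Gy, without overlap, and a change of -1.65 ± 0.32 (limma adjusted p = 0.002). miR-194-2-3p, from the other miR-194 hairpin, changed by -1.14 ± 0.18 and miR-192-3p by -0.90 ± 0.21. The guide arm miR-192-5p had levels of 1922, 2408, 1955 and 2449 at 0 Gy and 1790.2, 1349.9, 1013 and 1685 at 10 Gy. Its doses did not overlap either, and its change was -0.61 ± 0.21 (limma adjusted p = 0.033), but it failed when any 1 of controls 2, 3 and 4 or irradiated arrays 2 and 3 was left out (adjusted p up to 0.094). miR-194-5p and miR-215-5p, at -0.67 ± 0.26 and -0.71 ± 0.27, did not pass (limma adjusted p = 0.057 and 0.052). Leaving out 1 array at a time gave 3 to 7 falls in this group. Without scaling, only 13 of all 335 tested miRNAs were lower.

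The miR-200 family, which keeps epithelial cells from turning mesenchymal by repressing Zeb1 and Zeb2, was lower as a group. Of its 8 tested members 7 fell and none rose, with a median change of -0.64, and for all 8 the doses did not overlap. miR-200b-3p had levels of 946, 1148, 906 and 1030.2 at 0 Gy and 739, 545, 432 and 653 at 10 Gy. That is a change of -0.79 ± 0.20 (limma adjusted p = 0.0084), and every irradiated array lay below every control. miR-200c-3p, from the other of the 2 miR-200 loci, changed by the same -0.79 ± 0.20, with levels of 730.1, 874, 686 and 759 at 0 Gy and 564, 390.5, 334 and 503 at 10 Gy. The eighth member, miR-200a-3p, changed by -0.46 ± 0.19 (limma adjusted p = 0.067). Leaving out single arrays gave 5 to 8 falls, with miR-141-5p failing with any 1 array but control 1 and irradiated array 1 left out (adjusted p up to 0.117) and miR-429-3p without control 2, 3 or 4 or irradiated array 2 (up to 0.063). miR-141-5p also failed with replicate number or slide row as a block. Without scaling none of the 8 passed and their median was -0.18, and with spike-in scaling 4 did. The loci are chr4:156053905-156055750 (Mir429, Mir200a, Mir200b) and chr6:124717914-124718390 (Mir141, Mir200c).

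Of 11 other epithelial miRNAs 3 fell, none rose, and the median was -0.08. These were miR-378a-3p, encoded within the metabolic coactivator gene Ppargc1b, at -1.02 ± 0.20 (limma adjusted p = 0.0019), and both arms of miR-31, which is known from intestinal stem cells, at -0.71 and -0.68. miR-378b, miR-378c and miR-378d, close relatives of miR-378a that its RNA may also bind, fell by similar amounts (-0.85, -0.72 and -0.78). miR-375-3p, a miRNA of enteroendocrine and other secretory cells, had levels of 177, 142, 165 and 184 at 0 Gy and 235, 141, 142 and 134 at 10 Gy. Replicate 1 at 10 Gy was the highest of all 8, the other irradiated arrays lay near or below the lowest control, and the change of -0.07 ± 0.21 did not pass. Replicate 1 at 10 Gy was also the highest irradiated array for miR-182-5p and miR-183-5p of the sensory-cell miR-183 cluster, which did not pass either.

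The miR-17/92 cluster and its relatives were lower. Of 11 tested members 9 fell and none rose, with a median of -0.58, and the doses did not overlap for 10. miR-20b-5p had levels of 103.3, 97.4, 106.9 and 99.5 at 0 Gy and 81.0, 51.9, 50.6 and 64.5 at 10 Gy. Its change was -0.74 ± 0.19 (limma adjusted p = 0.0088), with all irradiated arrays below the controls. The related miR-93-5p, miR-25-3p and miR-106b-5p, which lie together at chr5:138165321-138165818 within Mcm7, a gene of the replicative helicase, changed by -0.70, -0.65 and -0.59. miR-18a-5p, encoded in the same primary transcript as miR-17-5p (-0.68), changed by -0.12 ± 0.18 and did not pass. Leaving out single arrays left 4 to 10 falls, and 5 of the 9 lost their call at least once. miR-92a-3p failed with any of 7 arrays left out (adjusted p up to 0.108) and under 21 of 29 alternatives in all. miR-20a-5p and miR-17-3p failed without any 1 control or irradiated array 2 (up to 0.094 and 0.088), miR-19a-3p without control 2, 3 or 4 (up to 0.058) and miR-106b-5p without control 3 or 4 (up to 0.054). Without scaling no member fell, 1 (miR-18a-5p) was higher, and the median was -0.12.

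Leukocyte miRNAs went both ways. miR-150-5p, known from mature B and T cells, had levels of 23.1, 4.81, 18.1 and 5.74 at 0 Gy and 2.53, 1.70, 1.29 and 2.22 at 10 Gy. Controls 1 and 3 were several times as bright as controls 2 and 4, yet all 4 lay above the irradiated arrays, of which 1 detected it. Its fitted change was -2.32 ± 0.43 (limma adjusted p = 0.0014), set against irradiated arrays mostly not well above background. It did not pass with no detection filter (adjusted p = 0.12) or with a floor 4 times as high (-0.75, adjusted p = 0.28). miR-142a-3p, expressed by nearly all blood cells, had levels of 181, 114, 212 and 146 at 0 Gy and 63.1, 77.4, 74.3 and 99.4 at 10 Gy, with the same controls highest. It changed by -1.04 ± 0.22 (limma adjusted p = 0.0034), and miR-142a-5p fell too (-1.0), although its doses overlapped and it failed with control 3 or irradiated array 1 or 3 left out (adjusted p up to 0.063). The other 4 of the 7 tested lymphocyte and general leukocyte miRNAs did not pass, among them miR-155-5p (-0.10 ± 0.30), which activated lymphocytes make. The median of the list was -0.11. Without scaling it was 0.35, with 1 lower and 2 higher.

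Of 6 tested myeloid and inflammatory miRNAs, 4 rose and none fell, with a median of 0.68. Over all 335 tested miRNAs 26.0% were higher. miR-223-3p had levels of 35.4, 44.8, 46.4 and 54.8 at 0 Gy and 93.3, 126, 109 and 88.0 at 10 Gy. The doses did not overlap, and the change was 1.2 ± 0.19 (limma adjusted p = 0.00047). miR-132-3p, which is induced by CREB and by inflammatory signals, had levels of 9.32, 8.90, 8.52 and 9.82 at 0 Gy and 23.1, 23.1, 17.4 and 26.4 at 10 Gy, a change of 1.29 ± 0.18 (limma adjusted p = 0.00015) that passed under all alternatives run. miR-21a-5p, a widely expressed miRNA induced by STAT3 and in injured tissue, changed by 0.55 ± 0.17 (limma adjusted p = 0.021). It failed with control 1 or 2 or irradiated array 4 left out (adjusted p up to 0.063). miR-146b-5p, a brake on NF-kB signalling, was detected on all irradiated arrays and on no control and was at least 1.13-fold higher. It passed the detection filter only through the irradiated arrays, so it had to differ, and its place among the 4 rises is no support. It turned to -0.16 without passing under normexp with offset 16. Its near copy miR-146a-5p did not pass (-0.04 ± 0.17). miR-511-3p, cut from the macrophage mannose receptor gene Mrc1 and in no list, was likewise detected only on the 4 irradiated arrays, at least 1.22-fold higher. It too had to differ. Under the percentile over all miRNAs 1 of the 6 listed miRNAs passed, and miR-223-3p did not (limma adjusted p = 0.083). In RNA of whole tissue, fewer cells of a type and less of a miRNA per cell cannot be told apart.

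Mesenchymal miRNAs were higher. Of 9 tested, 6 rose and none fell, with a median of 0.62. miR-214-3p, known from fibroblasts and perivascular cells, had levels of 12.7, 12.7, 13.8 and 17.2 at 0 Gy and 29.3, 31.2, 22.5 and 32.5 at 10 Gy. It changed by 1.03 ± 0.18 (limma adjusted p = 0.0011) without overlap. miR-199a-5p and miR-199a-3p share a hairpin that lies with that of miR-214 at chr1:162217814-162223477, within Dnm3, and have another copy within Dnm2. They changed by 0.82 and 0.80. miR-497a-5p, miR-195a-5p and miR-125b-5p rose by 0.65, 0.62 and 0.49. miR-125b-5p passed only when all arrays or all but 10 Gy replicate 3 were used (adjusted p up to 0.094 otherwise). Leaving out single arrays gave 4 to 8 rises, and under the percentile over all miRNAs none passed.

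None of the 6 tested smooth muscle miRNAs passed. Their median was 0.24, near the 0.16 of all miRNAs, and without scaling all 6 were higher. miR-143-3p changed by 0.23 ± 0.18 and miR-145a-5p by 0.25 ± 0.19. Neither of the 2 endothelial miRNAs passed, although the doses did not overlap for either; miR-126a-3p changed by 0.44 ± 0.18 (limma adjusted p = 0.063). Of the erythrocyte miRNAs, miR-451a did not pass (0.21 ± 0.26), while miR-486a-5p passed but was detected on no control. No lower bound above 1 could be given for miR-486a-5p. It passed the detection filter only through the irradiated arrays, so it had to differ. Its call was lost under 10 of 28 alternatives, among them quantile normalization and the brightest probe, and its direction turned, to -0.24, under normexp with offset 16. miR-210-3p, the main miRNA induced by hypoxia, rose (0.79 ± 0.18, limma adjusted p = 0.0053). That call was lost under 9 of 29 alternatives, among them quantile normalization (0.51, adjusted p = 0.086), the percentile over all miRNAs (0.28) and normexp with offset 16 (0.04). Of the neuronal miRNAs, miR-218-5p rose (0.74, but -0.11 without passing under normexp with offset 16), miR-128-3p did not pass, and miR-124-3p, miR-9-5p and miR-138-5p were not tested. The 4 liver and pancreas miRNAs, including miR-122-5p, were not tested either.

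**Figure D3:**
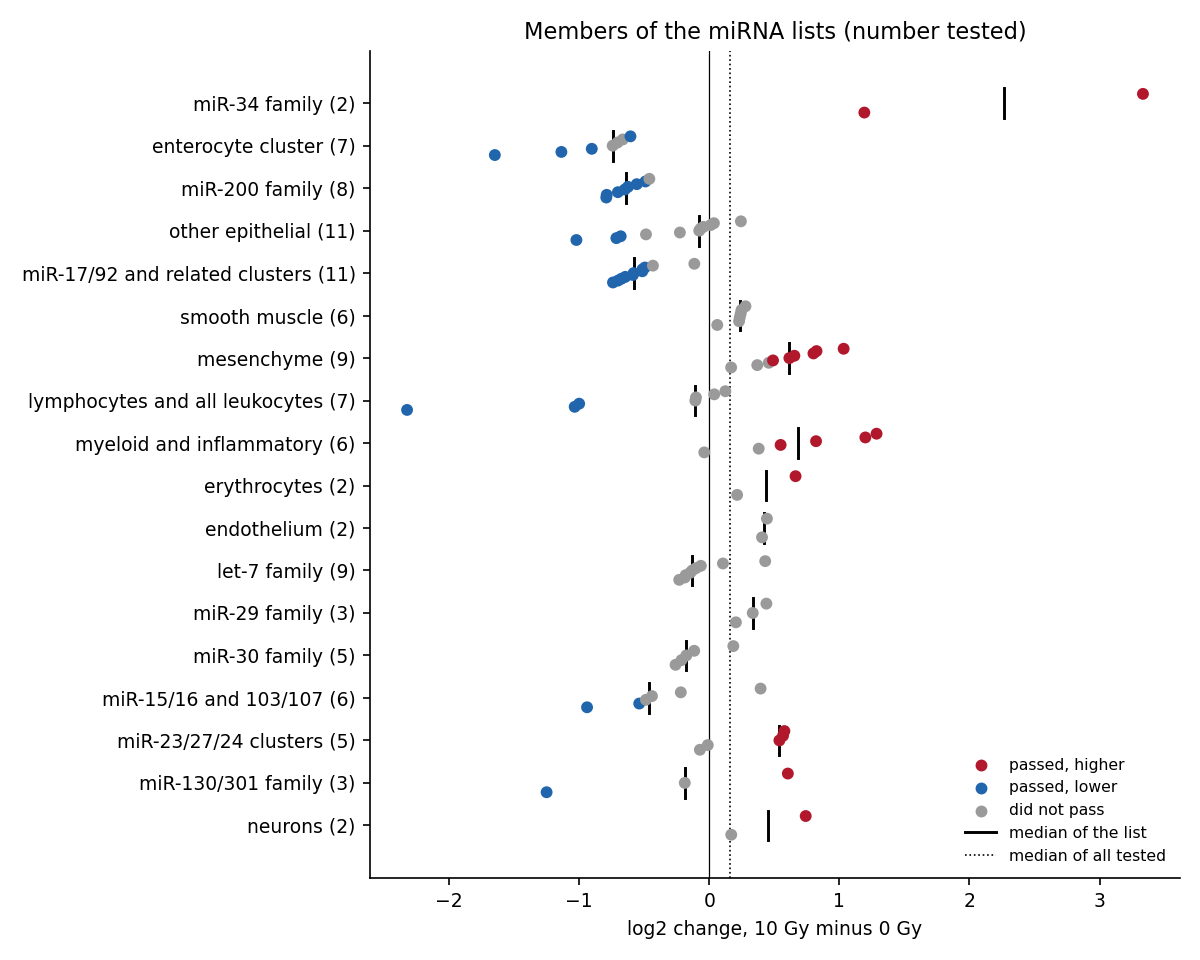
Each point is 1 tested miRNA of a list, placed by its log2 change (10 Gy minus 0 Gy) and coloured by its limma call. Black bars are list medians and the dotted line is the median of all 335, 0.16. The medians of the epithelial and miR-17/92 lists lie left of it and those of the mesenchymal and myeloid lists right of it. miR-7a-5p of the other epithelial list and miR-146a-5p of the myeloid list lie on the opposite side.

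miRNAs with the same seed did not always change together. Of the 10 seeds shared by at least 3 tested miRNAs, 2 had passing members in both directions. With the seed AGCAGCA, miR-15b-5p had levels of 330.5, 361, 338 and 357 at 0 Gy and 232, 173, 129 and 204 at 10 Gy, a change of -0.94 ± 0.20 (limma adjusted p = 0.0029). Every irradiated array was below every control. miR-195a-5p had levels of 86.2, 103.5, 106 and 119 at 0 Gy and 174, 162, 125 and 175 at 10 Gy and changed by 0.62 ± 0.18 (limma adjusted p = 0.018) without overlap, every irradiated array lying above the controls. It did not pass without 0 Gy replicate 1 (adjusted p = 0.051). miR-16-5p, miR-15a-5p and miR-322-5p, at -0.44, -0.22 and 0.39, did not pass. In the wider list of miR-15, miR-16, miR-103 and miR-107, 2 of 6 fell, none rose and the median was -0.46; the other fall, miR-103-3p (-0.54), failed with any of 6 arrays left out (adjusted p up to 0.094). The miR-15b hairpin lies within Smc4, a condensin gene used in mitosis, and miR-195a lies beside miR-497a, which rose with it, on chromosome 11.

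With the seed AGUGCAA, miR-130b-3p had levels of 32.1, 32.9, 31.2 and 34.5 at 0 Gy and 17.4, 13.8, 9.78 and 15.2 at 10 Gy. It changed by -1.25 ± 0.19 (limma adjusted p = 0.00044) and passed under all alternatives run. miR-130a-3p, which differs from it at 2 of 22 bases, had levels of 108, 90.5, 114 and 131 at 0 Gy and 195, 167, 129 and 186 at 10 Gy, a change of 0.60 ± 0.19 (limma adjusted p = 0.023) with overlapping doses. It failed with control 2 or 3 or irradiated array 1 or 4 left out (adjusted p up to 0.089). miR-721 was detected on irradiated arrays only, through which alone it passed the detection filter, so it had to differ. Its signal was at least 2.18-fold higher. miR-301a-3p did not pass (-0.19). Under the percentile over all miRNAs, miR-130a-3p, miR-195a-5p and miR-497a-5p no longer passed.

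The miRNAs of the miR-23a cluster rose, while miR-23b-3p and miR-27b-3p of its paralogous cluster did not pass; the difference between the clusters was not tested. miR-23a-3p, miR-27a-3p and miR-24-3p, at chr8:84208518-84208921, changed by 0.54 ± 0.17, 0.57 ± 0.18 and 0.58 ± 0.17, each without overlap. miR-27a-3p had levels of 195, 172, 202 and 202 at 0 Gy and 342, 257, 237 and 316 at 10 Gy (limma adjusted p = 0.022). miR-27b-3p, its copy with 1 different base, had levels of 87.6, 88.6, 91.8 and 101.5 at 0 Gy and 95.5, 81.0, 75 and 102 at 10 Gy, with overlapping doses and a change of -0.07 ± 0.17. miR-23b-3p changed by -0.01 ± 0.18. miR-24-3p is cut from hairpins in both clusters, so its sources cannot be told apart. These rises lay close to the threshold: without 0 Gy replicate 2 none of the 3 passed (adjusted p 0.058 to 0.082), miR-23a-3p and miR-27a-3p failed without 0 Gy replicate 3 or 10 Gy replicate 4, and miR-23a-3p also without 0 Gy replicate 1 or 10 Gy replicate 1. Under the percentile over all miRNAs none passed and the median of the 5 tested miRNAs of both clusters went from 0.54 to 0.02, under 1 fit of all 6 groups none passed either, and quantile normalization lost miR-23a-3p.

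None of the 9 tested let-7 miRNAs, which share 1 seed and oppose growth, passed, with a median of -0.13. Nor did any of 3 miR-29 miRNAs, which repress collagen genes, or any of 5 miR-30 miRNAs. Their medians were 0.33 and -0.18. Without scaling 4 let-7, 3 miR-29 and 2 miR-30 miRNAs were higher, and the let-7 and miR-30 medians turned to 0.33 and 0.29. Of the 4 tested miRNAs with the miR-181 seed, miR-181d-5p fell (-0.44) and the others did not pass.

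**Figure D4:**
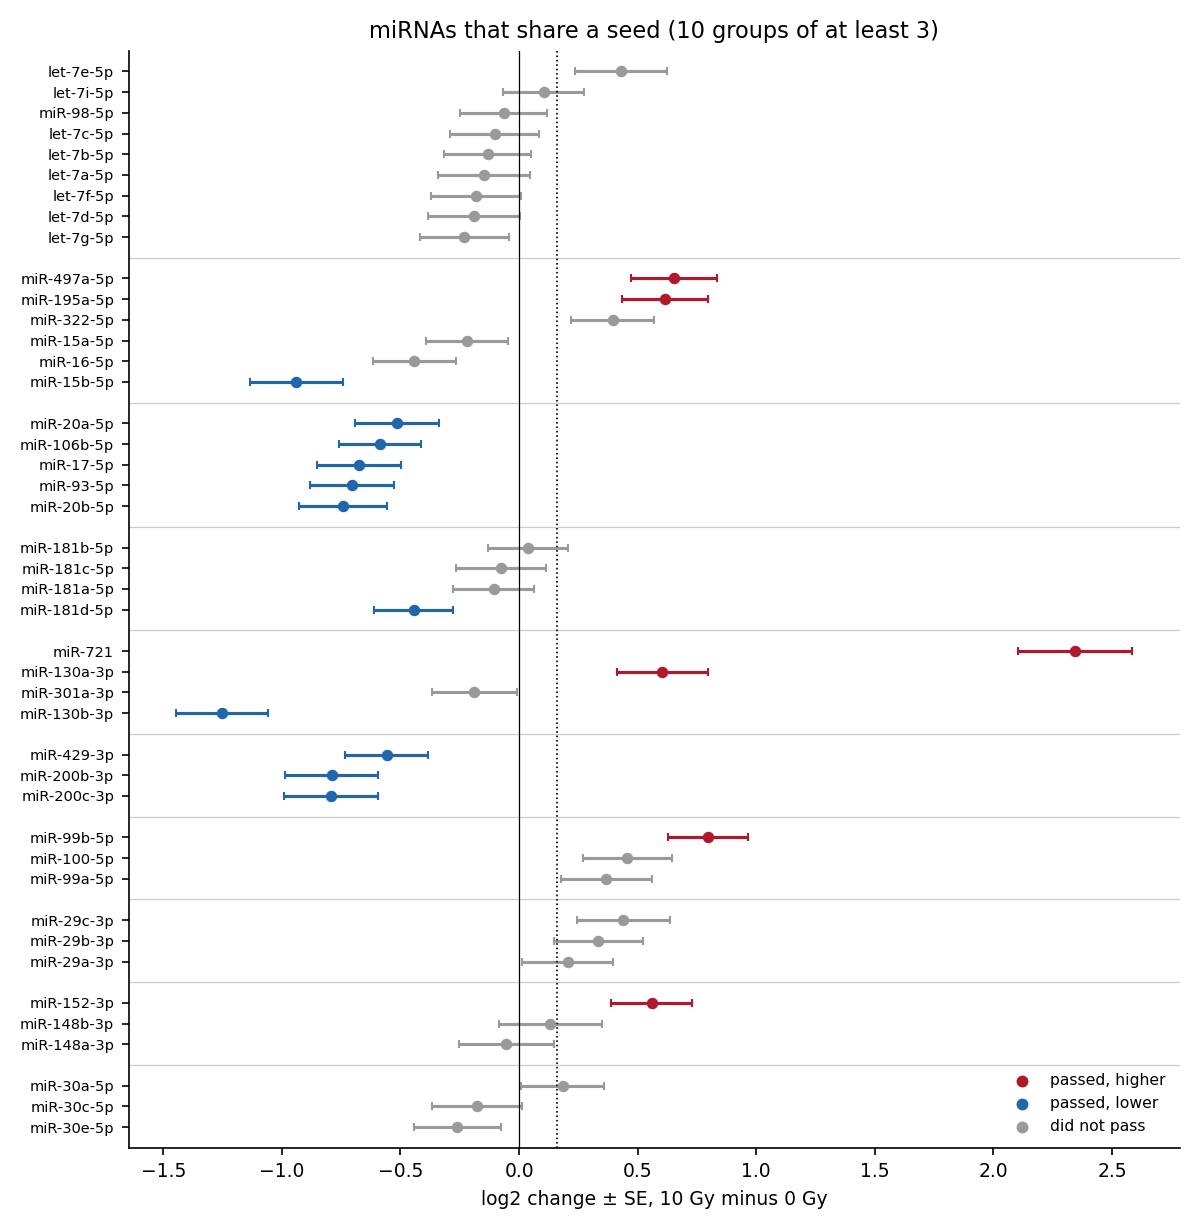
The log2 change ± SE (10 Gy minus 0 Gy) of every tested miRNA in the 10 groups that share a seed, separated by grey lines and coloured by limma call. All 5 members of the miR-17 group lie on the left, while miR-15b-5p lies opposite miR-195a-5p and miR-497a-5p, and miR-130b-3p opposite miR-130a-3p. miR-721, also on the right, was detected on irradiated arrays only, so it had to differ.

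Both arms were tested for 22 hairpins, and for 20 they had the same sign. Both arms rose in 4, both fell in 6, 1 arm passed in 6 and neither in 6. In no hairpin did the arms pass in opposite directions. The arms often differed in size. miR-139-3p changed by 1.49 ± 0.17 and miR-139-5p by 0.56 ± 0.18, and miR-125a-3p by 1.1 ± 0.20 and miR-125a-5p by 0.59 ± 0.17. The rise of miR-139-3p did not meet the rule of no overlap with detection on all 8 arrays, so its size is less certain. For miR-149, the 3p arm was at least 1.81-fold higher and detected on irradiated arrays only, while the 5p arm did not pass (-0.03 ± 0.17). That 3p arm passed the detection filter only through the irradiated arrays, so it had to differ. The differences between arms were not tested.

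**Figure D5:**
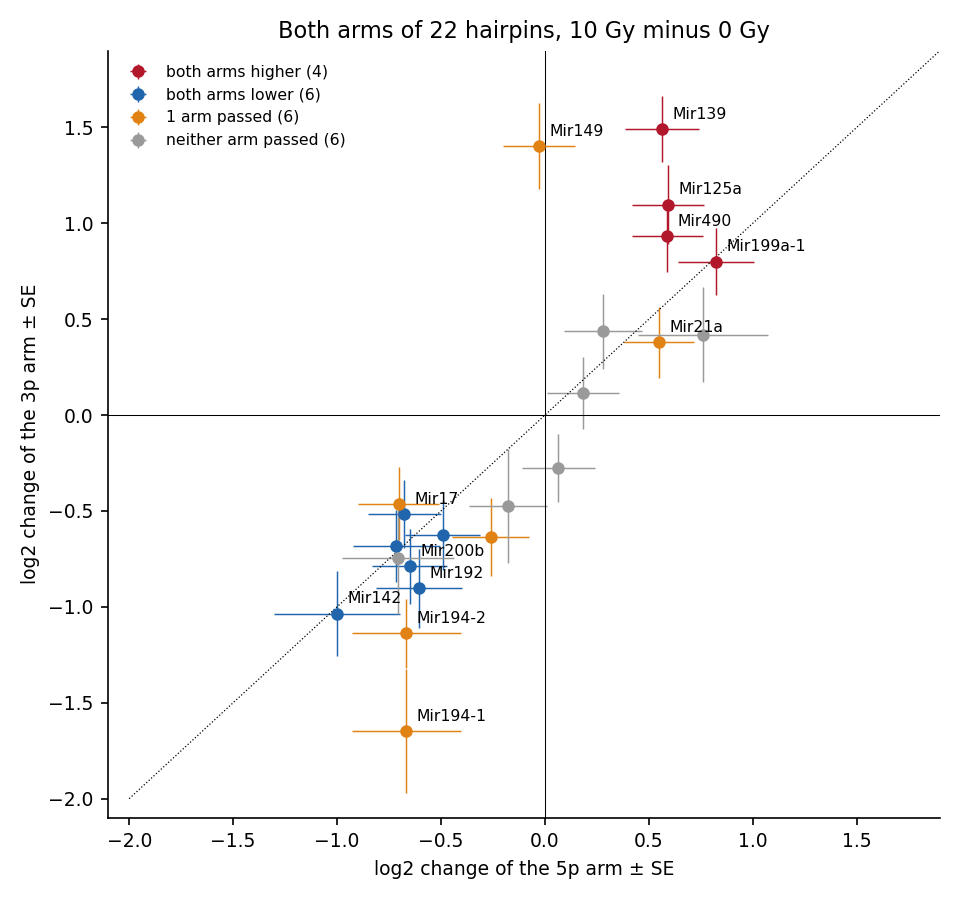
Log2 change of the 3p arm against that of the 5p arm, each ± SE, for 22 hairpins with both arms tested, coloured by which arms passed. The dotted line marks equal change. Most hairpins lie near it, and Mir149, Mir139 and Mir194-1 lie away from it. The 3p arm of Mir149 was detected on irradiated arrays only, so it had to differ.

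Beside the lists, the largest rises on all 8 arrays came from little-studied miRNAs and miR-483-5p. The latter, encoded within the growth factor gene Igf2, had levels of 14.4, 7.43, 9.67 and 8.38 at 0 Gy and 36.4, 37.3, 39.7 and 24 at 10 Gy. It changed by 1.8 ± 0.24 (limma adjusted p = 0.0001) without overlap. miR-7118-5p changed by 1.64, miR-3102-5p by 1.7, miR-7045-5p by 1.43, miR-1982-5p by 1.17 and miR-2137 by 1.18. Other rises were detected on no control array, so they had to differ. Of these, miR-877-5p, within the gene Abcf1, was at least 1.34-fold higher and miR-3091-5p at least 1.58-fold. miR-714 was at least 2.33-fold higher, miR-680 at least 1.29-fold and miR-8109 at least 1.06-fold. The fitted change of miR-877-5p was 2.67, but its detected probes, fitted singly, gave 0.64 to 0.79.

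Of the falls, miR-677-3p had levels of 19.8, 19.5, 18.8 and 19.3 at 0 Gy and 8.85, 6.76, 5.53 and 8.21 at 10 Gy. It changed by -1.42 ± 0.18 (limma adjusted p = 9.3e-05) and passed under all alternatives run. miR-7002-5p, miR-7005-5p, miR-344i, miR-6931-5p and miR-5119 changed by -1.73, -1.41, -1.21, -1.16 and -0.97 on the log2 scale. miR-7687-5p was detected on every control and on no irradiated array, at least 1.95-fold lower. It passed the detection filter only through the controls, so it had to differ. Of the 10 brightest miRNAs at 0 Gy, miR-21a-5p rose, miR-192-5p, miR-200b-3p and miR-494-3p fell, and 6 did not pass. miR-494-3p had levels of 6906, 1937, 2969 and 1146 at 0 Gy and 612, 975, 1336 and 1180.0 at 10 Gy. Control 1 was far the brightest and control 4 lay within the irradiated range, and the change of -1.4 ± 0.44 did not pass without 10 Gy replicate 1 (limma adjusted p = 0.084).

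Rises outside the lists included miR-22-3p, known from muscle and blood cells, and miR-99b-5p. miR-22-3p had levels of 261, 297, 246 and 280.3 at 0 Gy and 522, 439, 369 and 574 at 10 Gy, a change of 0.80 ± 0.18 without overlap (limma adjusted p = 0.0052). miR-99b-5p changed by 0.80 ± 0.17. These, with miR-511-3p, the miR-378 relatives, miR-139, miR-149 and miR-181d-5p, were chosen after their values were seen.

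The higher miRNAs were richer in G and C. Their median GC content was 59.1%, against 50% both for the lower ones and for those that did not pass. Of 92 miRNAs with 60% or more, 36 were higher and 8 lower, and of 39 below 40%, 7 and 6. Over all 335 tested, 26.0% were higher and 15.8% lower. Across the 291 miRNAs with a sequence, change and GC content correlated at r = 0.23, where all points share the same 8 arrays. Among those detected on all 8 arrays, 24 of 67 with 60% or more were higher and 7 lower, and of 31 below 40%, 1 and 6. Over all 268 on all 8 arrays, 19.8% were higher and 16.4% lower. The part of GC content in the calls was not tested. Among miRNAs too dim to test, 94 were detected at 10 Gy only and 5 at 0 Gy only.

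The dose change was set against that in feces of the same series, 4 arrays at each dose, in 1 limma fit of all 22 arrays. It differed for 59 of 219 miRNAs tested (26.9%), with the intestine above in 36 and below in 23. That split was 59 and 0 without scaling, and 25 and 34 after quantile normalization. The change of miR-34a-5p did not differ past the threshold (limma adjusted p = 0.56), but only 1 of the 4 feces controls detected it, so the size of its fecal change is not known. miR-200c-3p fell in intestine but had a change of 1.12 in feces, a difference of -1.91 ± 0.63 (limma adjusted p = 0.029). miR-378a-3p differed likewise, by -1.63 ± 0.39, with 0.60 in feces (limma adjusted p = 0.0041). Without scaling no difference with the intestine below passed, so those of miR-200c-3p and miR-378a-3p were lost. miR-483-5p changed by -0.56 in feces, a difference of 2.36 ± 0.37 (limma adjusted p = 0.00011).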

How the data were processed

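The members and lists were chosen with earlier results of these data known. The deposited intensity values came from Agilent Feature Extraction 11.5, per the file headers; the processed signal is linear, background-subtracted and not normalized between arrays. Deposited flags of 0 or 1 mark spots well above background or outlying. The authors' deposited series table of the same intensity values served as an alternative.

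Processed signals were averaged over non-outlying spots of a probe, summed over the probes of a miRNA and scaled within the array to the 75th percentile of the 268 miRNAs that all 8 arrays detected, raised to a floor (level 1.81) and taken to log2. A miRNA counted as detected if, for 1 probe, at least 50% of spots were well above background. Doses were compared with limma 3.58.1 (lmFit and eBayes, R 4.3.3) and Benjamini-Hochberg adjustment. The fit was also run on simulated data without the floor or the brightness difference between doses. A first run missed its bar, and the criteria later met were set after that outcome. "At least N-fold" sets the bright group's mean against, per array, the higher of the lowest detected probe signal and the probe's own. Named miRNAs were the 10 brightest at 0 Gy, up to 10 rises and 10 falls without overlap on all 8 arrays, up to 6 each way detected at 1 dose only, and list members; others are named as examples. The number of arrays limits precision.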

Additional observations from a re-analysis of the deposited data

Results flagged for a closer look

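Of 262 groups of 4 arrays, those of 130 named miRNAs and of the number of detected miRNAs at each dose, 13 (4.96%) held 1 array far from the others, where chance gives about 1 in 20. The values are the gap to the nearest array as a share of the group's range. At 10 Gy, replicate 1 was highest for miR-375-3p (0.901), miR-182-5p (0.865) and miR-183-5p (0.839) and lowest for miR-7005-5p (0.930), and replicate 3 was highest for miR-2137 (0.878) and lowest for miR-194-1-3p (0.884). At 0 Gy, replicate 4 was highest for miR-107-3p (0.973), miR-126a-3p (0.893), miR-30e-5p (0.838), miR-6366 (0.941) and miR-34b-5p (1, with the others at the floor), and replicate 1 was lowest for miR-18a-5p (0.845) and highest for miR-714 (1, with the others at the floor).

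Among 75 named miRNAs tested in both sample types, 16 had a dose change that differed between intestine and feces in the limma interaction. Over all 219 tested miRNAs 59 (26.9%) differed, so the named ones do not stand out by their number. The intestinal change was above the fecal one by 4.49 for miR-3091-5p, 3.93 for miR-877-5p, 3.21 for miR-721, 2.36 for miR-483-5p, 1.94 for miR-7118-5p, 1.91 for miR-8109, 1.81 for miR-3102-5p, 1.69 for miR-1982-5p, 1.58 for miR-680, 1.54 for miR-181a-5p and 1.39 for miR-714. It differed by -2.81 for miR-494-3p, -2.02 for miR-7002-5p, -1.91 for miR-200c-3p, -1.81 for miR-6931-5p and -1.63 for miR-378a-3p. Without scaling no difference with the intestine below passed, so these negative ones were lost. miR-3091-5p, miR-877-5p, miR-721, miR-714, miR-680 and miR-8109 were detected on no intestine control, and miR-3091-5p also on no irradiated feces array, so these values rest on signals near the floor and are not sizes of a change. Feces and intestine lay on separate slides, so slide and sample type cannot be told apart.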

How the results depend on the processing

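The numbers of higher and lower miRNAs moved with the scaling: 57 higher after quantile normalization, 21 higher and 86 lower with the 75th percentile over all miRNAs, 186 and 13 without scaling, and 164 and 26 with spike-in scaling, which, like the fits within 1 slide row (33 and 15 in row 1, 33 and 16 in row 2), was chosen after seeing the data. Fewer passed with normexp at offset 16 (39 higher), with the 268 miRNAs detected on all 8 arrays (53 higher), with no filter (28 and 4 of 1881), with a floor 4 times as high (41 and 31) and in 1 fit of all 6 groups (35 lower). Leaving out 1 array gave 58 to 94 higher and 39 to 52 lower, and a difference in detected miRNAs of 63.5 to 82.5, with an exact p of 0.0571 without any 1 control. With each dose's mean subtracted, the deviations of same-numbered arrays correlated between -0.56 and 0.44. Of the 4 controls, 1 correlated best with its own number. So few arrays cannot tell whether the numbers pair them. The replicate block gave 83 higher and 51 lower, and 69 differences from feces.

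Of the 69 named miRNAs that passed, 51 passed without each array in turn. Of the 140 calls, 26 turned direction and 88 were kept with normexp at offset 16, and 4 turned and 74 were kept with the percentile over all miRNAs; none passed in the opposite direction. Among named miRNAs, directions turned for let-7b-5p (0.33), let-7c-5p (0.36), miR-18a-5p (0.35), miR-23b-3p (0.45), miR-30d-5p (0.35) and miR-6366 (0.43) without scaling, and for miR-23b-3p (0.33) with spike-in scaling. They also turned for miR-125b-5p (-0.026) with the percentile over all miRNAs, for miR-146b-5p (-0.16), miR-218-5p (-0.11), miR-34b-5p (-0.066) and miR-486a-5p (-0.24) with normexp at offset 16, and for miR-5100 (0.37) with normexp at offset 50 and quantile normalization. The cause was not tested. miRNAs near background have the least precise changes.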
